A study of Mus musculus with 6 samples.

Results

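The genes of the NF-κB pathway and its targets were followed through the immune cells of the midbrain in a mouse model of Parkinson's disease. The module holds 37 genes of the 32285 in the count tables, taken by symbol: the 5 Rel subunits, 5 IκB proteins, 6 inhibitors of the signal, 9 receptors, adaptors and kinases, 8 targets that act in cell survival or stress and 4 other targets. All 37 were found. The rule itself uses no measured value.

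All animals were male Line 61 mice, which carry full-length wild-type human α-synuclein (α-Syn) under the Thy1 promoter, a promoter active in neurons. They received bilateral injections into the striatum at 12 to 15 weeks of age, and midbrain cells were collected 6 weeks later. The 4 groups were PBS, Monomer (monomeric human α-Syn), PFF + VH (preformed fibrils of human α-Syn, then vehicle) and PFF + AZD1480 (the same fibrils, then AZD1480, an inhibitor of the Janus kinases JAK1 and JAK2, at 25 mg/kg per day by oral gavage). Vehicle or AZD1480 was given from week 2 for 4 weeks. Live CD45+ cells, CD45 being the surface marker of immune cells, were sorted from pools of 3 to 5 ventral midbrains and sequenced with a droplet method that tags each RNA molecule with a unique molecular identifier (UMI). Each group was 1 library, so a library and its treatment cannot be told apart. Only the PFF + VH and PFF + AZD1480 libraries carry hashtags, antibody-bound barcodes that mark the cells of 1 pool. Their 4 and 5 hashtags were taken as the 4 and 5 biological replicates that the study states, which the labels do not spell out.

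NF-κB is a family of dimers built from 5 Rel subunits, the products of Nfkb1, Nfkb2, Rel, Rela and Relb. In a resting cell, IκB proteins hold the dimers in the cytoplasm. Toll-like receptors and cytokine receptors act through adaptors such as Myd88 and kinases such as Irak4 to switch on the IκB kinases, IκB is degraded, and the dimers enter the nucleus. Many of the first targets are brakes on the pathway itself, among them Nfkbia (IκBα) and Tnfaip3, a ubiquitin-editing enzyme. In microglia, the resident macrophages of the brain, the pathway is best known for driving cytokine and survival genes after injury or infection.

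The dimers bind the κB element, and the promoter sequences are shown because they mark which members carry it close to the start of transcription. In the 250 bases before the start (RefSeq, GRCm38.p6, both strands), the κB consensus was found in 13 of the 30 members with a promoter entry, 43.3%, against 8.23% of 27025 genes. The matches are given 5′ to 3′ on the strand of the gene, with the letters of the consensus in capitals. A match describes the letters in this window and is not a measured binding site.
Nfkb2, chr19:46304689-46304718 (+): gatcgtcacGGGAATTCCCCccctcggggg
Rel, chr11:23771041-23771070 (-): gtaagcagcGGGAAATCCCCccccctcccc
Nfkbia, chr12:55492657-55492686 (-): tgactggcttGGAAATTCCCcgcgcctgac
Nfkbid, chr7:30422215-30422244 (+): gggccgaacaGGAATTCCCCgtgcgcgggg
Tnfaip3, chr10:19015411-19015432 (-): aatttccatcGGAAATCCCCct
Tnip1, chr11:54962978-54963007 (-): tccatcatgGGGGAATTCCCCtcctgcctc
Tnip3, chr6:65590334-65590363 (+): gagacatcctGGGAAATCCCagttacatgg
Tnfaip2, chr12:111442627-111442656 (+): gactattttaGGAGGGCCCCtccagggtcg
In Nfkb2, Rel and Tnip1 overlapping matches make the capital run longer than the 10 letters of the consensus. The match in Nfkbia lies 20 to 29 bases before the start and that shown for Tnfaip3 lies 3 to 12 bases before it, with a second at 116 to 125 bases. A match was held by 1 of 2 promoter entries of Tnfaip3 and 1 of 3 of Nfkbid. The matches shown for Nfkb2, Nfkbid, Tnfaip3, Tnip3 and Tnfaip2 lie inside the gene in the GENCODE annotation. The RefSeq start used for them is thus downstream of the first annotated base. The other members with a match were Nfkbie, Tank, Tlr2, Ier3 and Sod2. No promoter entry was held for Nfkb1, Relb, Nfkbiz, Tlr4, Ripk2, Ikbkb and Map3k8.

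After filters 13021 to 34436 cells were kept per library. The PFF + VH library stood apart in depth, with a median of 2306 UMIs per cell against 6616 to 7028 in the other 3, and a single hashtag was assigned to 51.96% of its cells against 81.04% in the PFF + AZD1480 library. Pairs of libraries shared 45 to 151 kept barcodes. Cells were assigned to a class by UMIs of markers that are not members of the module. Microglia numbered 11997 to 31983 per library, border macrophages (the macrophages of the meninges and vessels) 235 to 351, lymphocytes 164 to 327 and dendritic cells 15 to 19. The classes rest on these markers, so their levels describe the gate and do not check it. In the summed cells of each class, microglial markers were at 8700 to 10601 counts per 1000000 UMIs (CPM) in microglia, and border macrophage markers were at 7148 to 10322 CPM in border macrophages and 97.4 to 120 CPM in microglia. Microglial markers were also at 468 to 1808 CPM in lymphocytes, lowest in the PBS library and highest in the PFF + VH library. Their part in the lymphocyte values was not tested.

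Summed over the 37 members, the module made up 8285, 8244, 9071 and 10355 CPM of microglial RNA in the PBS, Monomer, PFF + VH and PFF + AZD1480 libraries. Border macrophages ran from 5908 CPM in the PBS library to 9599 CPM in the PFF + AZD1480 library. The members split between the classes. By measured CPM, in all 4 libraries 7 members were highest in microglia (Nfkbia, Myd88, Ripk2, Cflar, Tnfaip2, Icam1 and Gpr84), 4 in border macrophages (Nfkbiz, Tlr4, Ier3 and Marcksl1), 4 in dendritic cells (Rel, Tnip3, Ikbkb and Bcl2a1d) and 2 in lymphocytes (Tnip1 and Ikbke). The order of the other 20 changed between libraries. No UMI of Ikbke was detected in dendritic cells. In the PFF + VH library the level that this allows lay above the lymphocyte level, and in the PBS library it lay close to it. The order of Ikbke in these libraries is thus not settled.

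**Figure D1:**
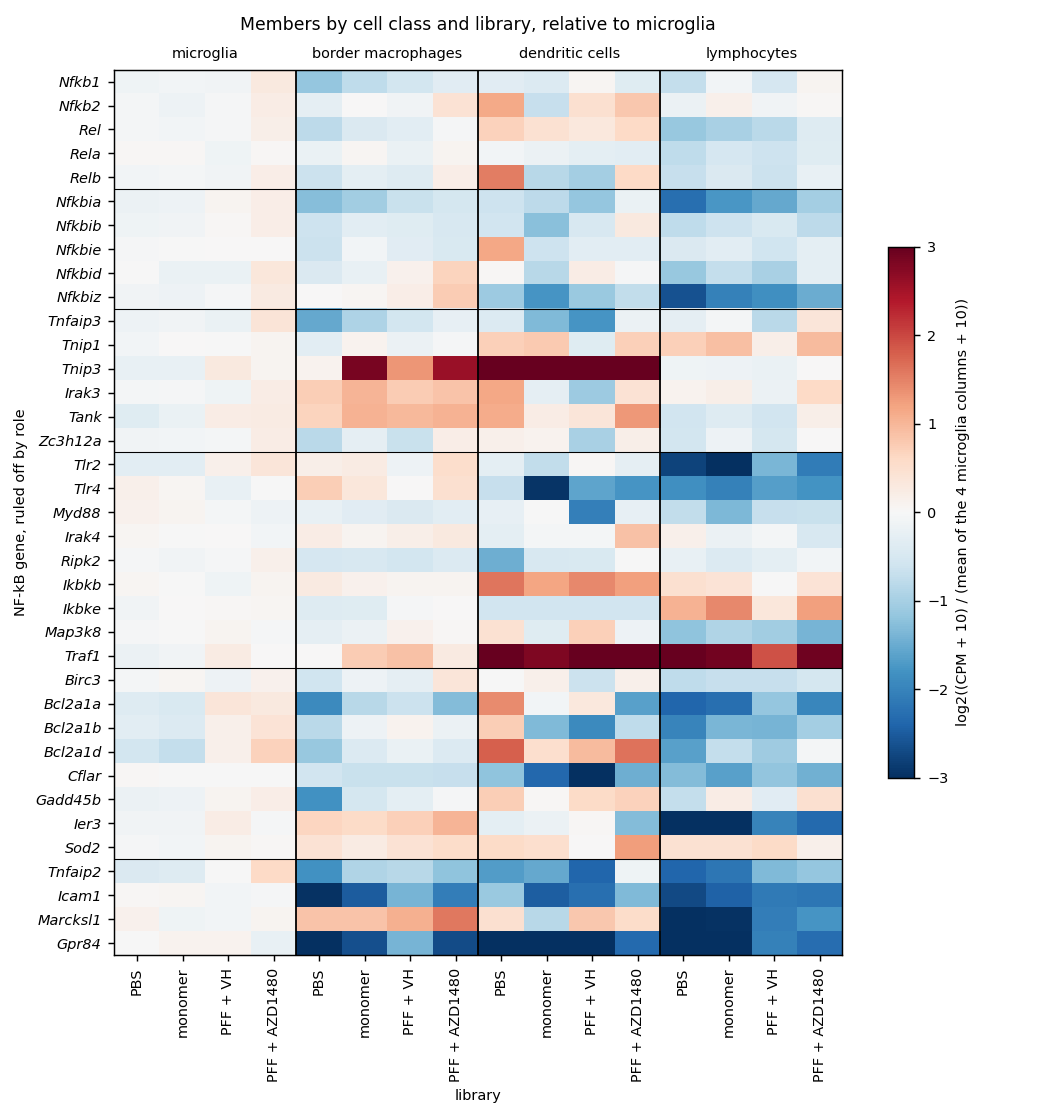
Heat map of the 37 members (rows, grouped by role) in 4 cell classes and 4 libraries (columns). Colour gives log2 of (CPM + 10) over (the mean microglial CPM + 10), with red above and blue below microglia and full colour from ±3 on; Gpr84 and Icam1 are blue outside microglia, and Tnip3 and Traf1 are red in dendritic cells.

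Border macrophages and microglia were compared within the 9 hashtags of the PFF libraries, which hold both classes from the same pool. Of 37 members tested, 9 were higher and 13 lower in border macrophages, 22 in all, while 29.2% of the 11096 genes tested passed, 11.8% as higher and 17.4% as lower (edgeR quasi-likelihood test, Benjamini-Hochberg adjusted p under 0.05 over all genes). The members' median log2 difference was -0.085, close to that of all genes tested, -0.094.

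By role, 3 inhibitors of the signal were higher and 1 lower of 6, and 2 survival and stress targets were higher and 4 lower of 8. Tnip3, a ubiquitin-binding partner of Tnfaip3, stood at 4.74, 89.1, 24.5 and 72.7 CPM in border macrophages of the PBS, Monomer, PFF + VH and PFF + AZD1480 libraries and at 1.86, 1.80, 6.92 and 4.57 CPM in microglia, and its log2 difference was 2.93 ± 0.46 (SE; adjusted p = 5.01e-07). Marcksl1, which binds actin, stood at 374.6, 373, 438 and 629.6 CPM against 224, 183, 190.4 and 214 CPM, with a log2 difference of 1.37 ± 0.12. All 4 libraries were higher in border macrophages for both genes. Irak3, an inactive kinase that restrains Toll-like receptor signaling, stood at 25.7, 33.0, 26.3 and 28.8 CPM against 9.33 to 14.7 CPM in microglia (log2 difference 1.36 ± 0.28). Ier3, an early response gene that modulates cell death, stood at 665 to 916 CPM against 411 to 519 CPM (0.81 ± 0.12). Tank (0.76), Sod2 (0.59), Tlr4 (0.44), Nfkbiz (0.38) and Nfkbid (0.37) also passed. The call of Tlr4 was lost without any 1 of 4 hashtags and under 2 of 7 settings, and that of Nfkbid without 1 hashtag and under 3 of 7.

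Of the lower members Gpr84, a receptor for medium-chain fatty acids, had the largest difference. It stood at 15.6, 28.4, 81.6 and 26.9 CPM in border macrophages against 228, 249, 246 and 194 CPM in microglia, a log2 difference of -2.38 ± 0.17 (adjusted p = 1.30e-17). Icam1, the adhesion molecule bound by leukocyte integrins, stood at 63.0, 92.2, 208 and 125.9 CPM against 580.5, 582, 534 and 553 CPM (-2.0 ± 0.14). The classes did not overlap in either gene. Tnfaip2, a gene induced by tumor necrosis factor, gave -2.02 ± 0.28, and Bcl2a1a, a survival factor of the Bcl-2 family, gave -1.77 ± 0.19. Among the Rel subunits Nfkb1 (-0.70 ± 0.12) and Rel (-0.29 ± 0.11) were lower, and among the IκB genes Nfkbib (-0.94 ± 0.19) and Nfkbia (-0.80 ± 0.10). The call of Rel was lost when any of 6 of the 9 hashtags was left out (adjusted p up to 0.150 by edgeR) and under 3 of 7 settings. Bcl2a1d (-0.81), Cflar (-0.71), Ripk2 (-0.60), Tnfaip3 (-0.58) and Gadd45b (-0.46) were also lower. Thinning took each cell of at least 1000 UMIs to 1000 UMIs and left out shallower cells. On thinned cells, with 33 members left to test, 3 were higher and 10 lower, while 21.1% of 6920 genes passed. Tnip3 and Irak3 had too few counts to be tested there, and of the other 7 higher members Tank, Ier3 and Marcksl1 passed. Of the 13 lower members 10 passed. Rel, Nfkbib (-0.56, adjusted p = 0.259 by edgeR) and Ripk2 (-0.82, adjusted p = 0.0752 by edgeR) did not. On all counts the call of Gadd45b was lost without any 1 of 2 hashtags.

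In lymphocytes 29 of 37 members differed from microglia within 8 hashtags, 2 higher and 27 lower, while 46.6% of 11198 genes passed, 17.8% as higher and 28.8% as lower. Traf1, an adaptor of tumor necrosis factor receptors, was the member with the largest excess: it stood at 126.3, 118, 54.5 and 119 CPM in the PBS, Monomer, PFF + VH and PFF + AZD1480 libraries and at 5.10, 6.01, 10.3 and 7.35 CPM in microglia (log2 difference 3.04 ± 0.28; adjusted p = 1.45e-12). Ikbke, an IκB kinase-related enzyme, stood at 20.8, 30.8, 8.76 and 25 CPM against 3.80 to 5.58 CPM (1.24 ± 0.44). Traf1 and Ikbke were both lowest in the PFF + VH library, where microglial markers were highest. Markers of B cells were also highest there, at 4072 CPM against 1000 to 1801 CPM in the other libraries. Those of T cells were lowest there, at 2841 CPM against 4509 to 4797 CPM. The part of these markers in the values of Traf1 and Ikbke was not tested.

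The 27 lower members came from all 6 roles. Tnfaip2 stood at 0, 1.58, 10.7 and 13 CPM in lymphocytes against 28.0 to 68.0 CPM in microglia (log2 difference -4.12 ± 0.46); the PBS library held 0 UMIs, which allows up to 2.02 CPM. Gpr84 gave -3.13 ± 0.21, Ier3 gave -2.91 ± 0.19 and Tlr2, the receptor for bacterial lipoproteins, gave -2.81 ± 0.26. All 5 IκB genes were lower, from Nfkbie (-0.72 ± 0.27) to Nfkbiz (-2.15 ± 0.15), and 4 of 5 Rel subunits were lower, from Nfkb1 (-0.50 ± 0.14) to Rel (-0.86 ± 0.15). Nfkb2 gave -0.15 ± 0.28 and did not pass. With cells thinned to 1000 UMIs 20 members passed, all lower, of 33 tested, while 35.5% of 6992 genes passed, and Traf1 and Ikbke had too few counts to be tested. Of the 4 lower Rel subunits only Rel passed there, with Relb at -0.11 (adjusted p = 0.811 by edgeR), Nfkb1 at -0.37 and Rela at -0.64. Of the IκB genes Nfkbib (-0.84) and Nfkbie (-1.29) did not pass. The call of Nfkbie was lost under 3 of 8 settings and without any 1 of 2 hashtags, and that of Ikbke without any 1 of 3.

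Only 71 cells were dendritic cells, and no hashtag held 10 of them, so they were compared with microglia within the 4 libraries. Of 37 members tested, 8 were higher and 9 lower, while 22.3% of 14896 genes passed, 8.72% as higher and 13.6% as lower, and the median log2 difference was -0.09 over members and -0.63 over all genes. Summed dendritic cells held 63763 to 160766 UMIs per library and microglia 80999541 to 102602575. In dendritic cells 2551 to 4205 genes held more than 3 UMIs in both libraries of a pair. The part of low counts in the shares and medians over all genes was not tested. Tnip3 was the member that set this class apart. It stood at 883, 536, 894 and 800.5 CPM in the PBS, Monomer, PFF + VH and PFF + AZD1480 libraries, and its log2 difference from microglia was 7.84 ± 0.24. With cells thinned to 1000 UMIs, 17.6% to 42.1% of dendritic cells and 0.107% to 0.457% of microglia held a Tnip3 UMI. Traf1 stood at 199, 109, 141 and 231 CPM (4.62 ± 0.32). Bcl2a1d (1.51 ± 0.25) and Ikbkb, the catalytic IκB kinase (1.44 ± 0.25), followed. Lower members were Gpr84 (-3.73 ± 0.37), Tlr4, the endotoxin receptor (-2.03 ± 0.45), Cflar, which blocks death receptor signaling (-1.94 ± 0.27), and Icam1 (-1.76 ± 0.21). Ikbke was at 0 UMIs in all 4 libraries. Taken as 3 UMIs over the class total, this allows up to 18.7 to 47.0 CPM per library, above its microglial level, so no fold is given.

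A few dendritic cells differed from the rest in the subunits of the alternative NF-κB branch. Dendritic cells with more UMIs of Xcr1, Clec9a and Cd209a than of Ccr7 and Cacnb3 (conventional, 64 cells) and those with the reverse (migratory, 4 cells, 3 of PBS and 1 of PFF + AZD1480) were summed apart, and intervals here cover counting error only. Relb, the subunit of that branch, was at 1043 CPM in migratory cells (95% exact Poisson interval 772 to 1379) against 79.9 CPM in conventional cells (56.0 to 111). Its partner Nfkb2 was at 213 CPM against 37.7 CPM, Rel at 1937 against 586 CPM, and Bcl2a1b at 2384 against 209 CPM. Tnip3 ran the other way, at 362 CPM against 784 CPM, and 40 of 64 conventional cells held a UMI. With 4 cells these values have no replicate check. The PBS library held 3 of the 4 migratory cells, and in its dendritic cells Relb was at 323.5 CPM against 47.0 to 163 CPM in the other libraries.

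**Figure D2:**
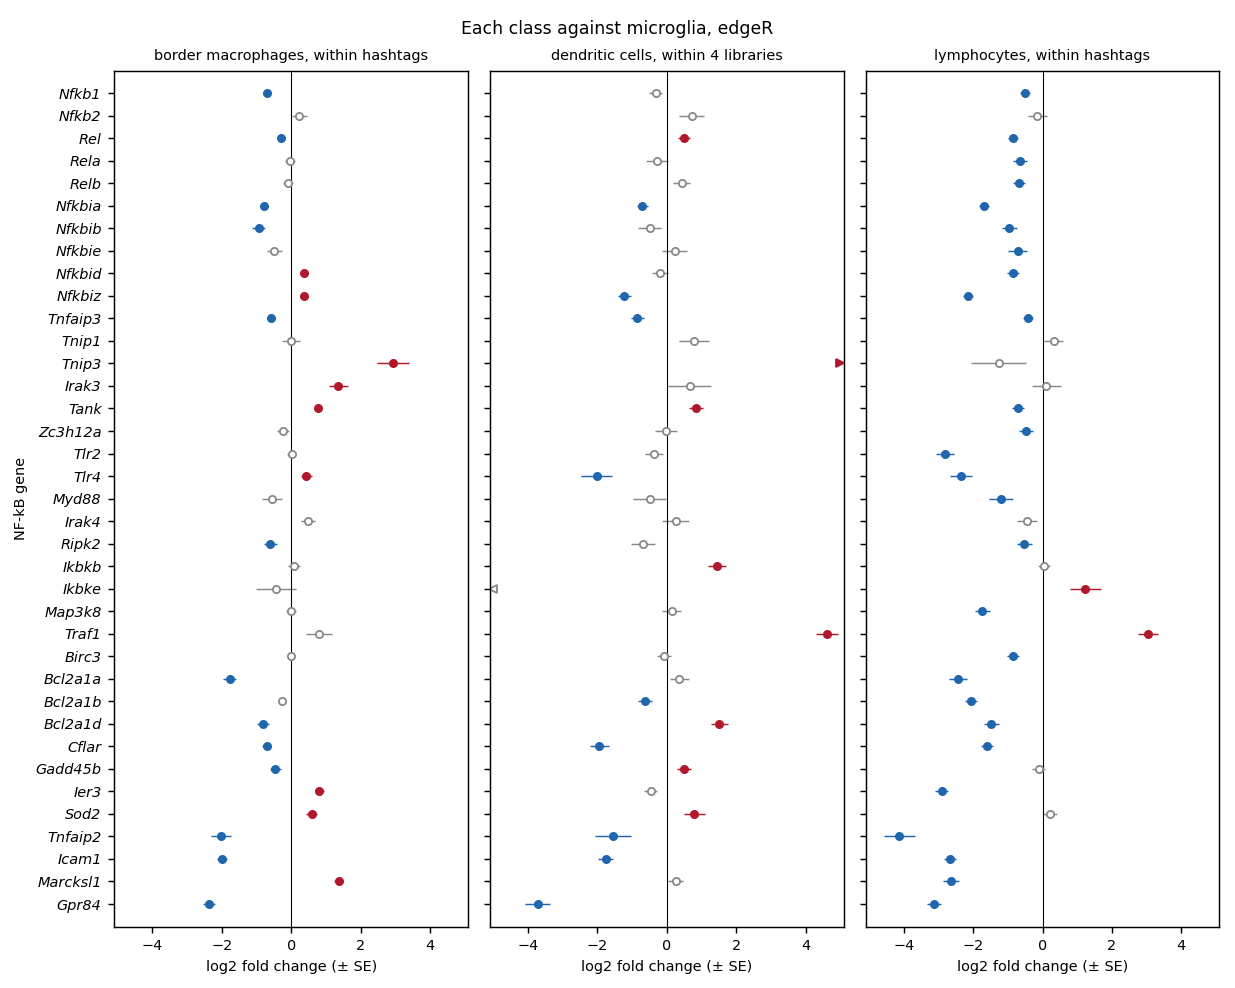
Log2 difference of each member between another class and microglia, with bars of 1 SE, for border macrophages and lymphocytes (within hashtags) and dendritic cells (within the 4 libraries). Filled points passed the adjusted p of 0.05 and open points did not; arrows mark points beyond ±5, which are Tnip3 at 7.84 and Ikbke, at 0 UMIs, in dendritic cells.

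The PBS, Monomer and PFF + VH libraries differ in what was injected. In microglia no member differed by at least 1.5-fold with 95% exact Poisson intervals apart between the Monomer and PBS libraries, a rule that 2.2% of 18681 genes passed. Between the PFF + VH and Monomer libraries 4 of 37 members passed it, all higher in PFF + VH. Of 18873 genes 7.87% passed, and 1275 of these 1486 genes were also higher in PFF + VH. Tnip3 stood at 1.86, 1.80, 6.92 and 4.57 CPM in the 4 libraries, in the order given above. Bcl2a1d stood at 43.0, 37.5, 76.5 and 116 CPM, Bcl2a1a at 72.4, 69.5, 129.8 and 123 CPM, and Traf1 at 5.10, 6.01, 10.3 and 7.35 CPM. The ratios of PFF + VH to Monomer were 3.85 for Tnip3, 2.04 for Bcl2a1d, 1.87 for Bcl2a1a and 1.71 for Traf1. With cells thinned to 1000 UMIs the log2 ratio of Traf1 went from 0.77 to 0.50, below the 1.5-fold rule. Both PFF libraries were above both control libraries in each of these genes. The same held in these microglia for neutrophil markers, at 14.3, 6.2, 71.1 and 55.4 CPM in the 4 libraries, and for monocyte markers, at 8.09, 7.56, 18.6 and 11.3 CPM. The part of these markers in the ratios was not tested. There is 1 library per group, so these ratios have no replicate check and no test, and they come from a library with less depth per cell. The Bcl2a1 genes share 98.16% to 99.14% of their transcript sequence, so reads of one copy may have been counted for another.

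Nfkb1, Nfkbia and Tlr2 stayed within 1.5-fold between the PBS, Monomer and PFF + VH libraries. Nfkb1 stood at 469, 478, 472 and 623 CPM in microglia of the PBS, Monomer, PFF + VH and PFF + AZD1480 libraries, Nfkbia at 1739, 1768, 2056 and 2259 CPM and Tlr2 at 96.1, 97.4, 137 and 162 CPM. The highest of the 4 libraries was PFF + AZD1480 for each gene. In border macrophages 7 members were higher in Monomer than in PBS (3.37% of 10452 genes passed this rule). Among them Tnip3 was at 18.8-fold over a low PBS level, Tnfaip2 at 3.73-fold and Gadd45b, a stress response gene, at 2.60-fold. Border macrophage markers stood at 10226 CPM in this class in PBS and 7148 CPM in Monomer, and their part in these ratios was not tested. In dendritic cells 9 members were lower in Monomer than in PBS (3.52% of 4205 genes passed): Relb was at 54.4 against 323.5 CPM, Bcl2a1b at 194 against 846 CPM and Icam1 at 93.3 against 255 CPM, and 3 of the 19 dendritic cells of PBS and 0 of the 18 of Monomer were migratory. In lymphocytes 5 members were higher in Monomer (3.07% of 10595 genes passed), among them Bcl2a1d at 2.45-fold, Gadd45b at 1.96-fold and Nfkb1 at 1.59-fold.

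Between PFF + VH and Monomer 3 members of border macrophages passed the rule (3.92% of 10235 genes): Gpr84 at 2.87-fold, Icam1 at 2.25-fold and Tnip3 at 0.275-fold. With cells thinned to 1000 UMIs none of the 3 passed, and the log2 ratio went from 1.52 to 1.41 for Gpr84, from 1.17 to 0.34 for Icam1 and from -1.86 to -0.70 for Tnip3. Microglial markers stood at 2121 CPM in border macrophages of the PFF + VH library and 1392 CPM in Monomer, and microglia were the class with the highest Gpr84 and Icam1 in every library. Their part in these ratios was not tested. Several hashtags were called in 56 border macrophages of PFF + VH, which stayed in the library CPM. Gpr84 stood at 143 CPM in these cells and 62.0 CPM in those with a single hashtag. Icam1 stood at 270 against 183 CPM and Tnip3 at 0 against 33.5 CPM. The part of these cells in the ratios was not tested either. In lymphocytes 10 members passed between PFF + VH and Monomer, 5 in each direction (8.3% of 10319 genes), and 3 did when cells were thinned to 1000 UMIs. Markers of B cells stood at 4072 CPM in lymphocytes of PFF + VH and 1000 CPM in those of Monomer. Those of T cells stood at 2841 against 4509 CPM and those of microglia at 1808 against 505 CPM. The part of these 3 lists in the lymphocyte ratios was not tested. In dendritic cells, 15 and 18 cells, 1 member passed (3.49% of 2551 genes), Marcksl1 at 3.31-fold.

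In the comparison of AZD1480 with vehicle after fibrils the hashtags give replicate pools within each library. Each treatment is still 1 library, so differences between the libraries and between the treatments cannot be told apart. In microglia 12 members rose and 1 fell with AZD1480, 13 of 37, while 26.9% of 13658 genes passed, 12.2% as higher and 14.7% as lower. The members' share was 35.1%, and their median log2 difference was 0.16, with 26 of 37 above 0, while the median over all genes tested was close to 0. All 5 Rel subunits rose, by 0.18 to 0.39 on the log2 scale. Cells without a hashtag call were not tested: 36.6% of VH microglia and 5.23% of AZD1480 microglia. In the PFF + VH library these had Nfkb1 at 515 CPM, Rel at 502 CPM and Rela at 78.2 CPM. Its cells with a single hashtag had 463, 455 and 70.7 CPM. All 5 subunits were higher without a hashtag call in both PFF libraries. The part of the cells left out in these differences was not tested.

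Nfkb1 was at 449.5, 524, 505 and 427 CPM in VH hashtags 1 to 4 and at 680.0, 660.4, 590.5, 532 and 658 CPM in AZD1480 hashtags 1 to 5. Every AZD1480 hashtag was above every VH hashtag, and the log2 difference was 0.39 ± 0.08 (SE; adjusted p = 0.00454, edgeR). Relb was at 89.6, 108, 105 and 93.3 CPM against 129.7, 129, 120.4, 101 and 139.6 CPM (0.32 ± 0.09; adjusted p = 0.0164 by edgeR). Nfkb2 had a mean of 30.5 ± 3.95 CPM (SD, 4 hashtags) against 37.6 ± 4.03 CPM (5 hashtags), a log2 difference of 0.30 ± 0.10. Rel had 431 to 511 CPM in VH hashtags and 490.0 to 559 CPM in AZD1480 hashtags (0.22 ± 0.06) and Rela had a mean of 72.4 ± 5.13 against 81.8 ± 5.24 CPM (0.18 ± 0.06). In these 4 genes the 2 groups of hashtags overlapped. The call of Rela was lost when any of 7 of the 9 hashtags was left out, that of Nfkb2 for 6, that of Rel for 4 and that of Relb for 1, and that of Nfkb1 for none. Of 11 other settings, Rela did not pass under 6 and Nfkb2 under 4.

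Of the IκB genes 1 of 5 passed. Nfkbid, a nuclear IκB protein, was at 151, 151, 195 and 167 CPM in VH hashtags and at 319.8, 211, 240.0, 185 and 265 CPM in AZD1480 hashtags (0.55 ± 0.14; adjusted p = 0.0108 by edgeR), and 1 AZD1480 hashtag lay below the highest VH hashtag. Nfkbia, the fastest feedback target, did not pass: it was at 1728, 2674, 2347 and 1762 CPM against 2268, 2506, 2084, 2077 and 2515 CPM (0.11 ± 0.12; adjusted p = 0.569 by edgeR). The VH hashtags spread across the whole range of the AZD1480 hashtags. Nfkbiz gave 0.27 ± 0.12, Nfkbib 0.14 ± 0.07 and Nfkbie 0.01 ± 0.09. The immediate early and heat shock genes, which respond to cell handling, summed to 19672, 26440, 23194 and 20156 CPM in the VH hashtags and to 24388 to 25897 CPM in the AZD1480 hashtags, with the same pair of VH hashtags low as for Nfkbia. Their part in the Nfkbia values was not tested.

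Among the inhibitors of the signal Tnfaip3 and Irak3 rose. Tnfaip3 was at 382.5, 589, 512.5 and 435 CPM in VH hashtags and at 691, 788, 799, 678 and 725 CPM in AZD1480 hashtags, with no overlap (0.62 ± 0.11; adjusted p = 0.00152 by edgeR). Irak3 was at 8.41, 7.88, 11.4 and 9.29 CPM against 15, 17.4, 14.5, 11 and 14.4 CPM (0.64 ± 0.14; adjusted p = 0.00540 by edgeR). Only AZD1480 hashtag 4 reached into the VH range. Zc3h12a, a ribonuclease that degrades inflammatory transcripts, gave 0.29 ± 0.10 (adjusted p = 0.0572 by edgeR), and Tnip1, Tank and Tnip3 did not pass.

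Of the receptors, adaptors and kinases 2 rose and 1 fell. Tlr4 was at 58.0, 51.5, 55.9 and 55.5 CPM in VH hashtags and at 66.2, 65.7, 66.5, 69.6 and 58.2 CPM in AZD1480 hashtags (0.24 ± 0.06; adjusted p = 0.00701 by edgeR). Ikbkb was at 56.8, 60.6, 58.2 and 55.0 CPM against 69.5, 64.0, 65.7, 63.9 and 67.0 CPM (0.20 ± 0.05; adjusted p = 0.00743 by edgeR). The groups did not overlap in either. Traf1 was the member that fell. It was at 11.7, 9.69, 11.3 and 9.93 CPM in VH hashtags and 6.67, 8.51, 5.91, 6.86 and 4.73 CPM in AZD1480 hashtags, again with no overlap (-0.67 ± 0.14, adjusted p = 0.00369 by edgeR). In these microglia markers of T cells stood at 59.8 to 77.6 CPM in VH hashtags and 40.4 to 57.0 CPM in AZD1480 hashtags. Those of NK cells stood at 7.68 to 14.9 CPM against 1.25 to 3.70 CPM. Neither list overlapped, and their part in the Traf1 values was not tested.

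Of the 8 survival and stress targets Bcl2a1d alone passed, at 82.3 ± 14.8 CPM (SD, 4 hashtags) against 116.5 ± 16.1 CPM (5 hashtags), a log2 difference of 0.51 ± 0.12. Its near-identical copies Bcl2a1b (0.20 ± 0.10) and Bcl2a1a (-0.20 ± 0.13) did not pass, and how reads were shared among the copies was not tested. Tnfaip2 had the largest rise of any member: it was at 35.1, 55.3, 46.8 and 32.7 CPM in VH hashtags and 60.3, 94.3, 77.7, 48.1 and 77.6 CPM in AZD1480 hashtags, where 1 hashtag lay in the VH range (0.75 ± 0.19; adjusted p = 0.0133 by edgeR). Gpr84 (-0.36 ± 0.13), Ier3 (-0.32 ± 0.14), Icam1 (0.04 ± 0.12) and Marcksl1 (0.16 ± 0.23) did not pass. Of the 37 members 5 had hashtag groups that did not overlap (Nfkb1, Tnfaip3, Tlr4, Ikbkb and Traf1), while the groups did not overlap in 23.2% of the 13658 genes tested, a larger share than among the members.

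Depth and other measures moved with treatment in these microglia. The median mitochondrial share was 0.979% to 1.18% in VH hashtags and 0.751% to 0.863% in AZD1480 hashtags. Markers of monocytes stood at 12.8 to 18.9 CPM against 7.24 to 12.5 CPM. The part of these 2 measures in the calls was not tested. The VH hashtags had medians of 2628 to 3342 UMIs per cell and the AZD1480 hashtags 6365 to 7191, and Gm42418, a transcript that overlaps ribosomal RNA, was at 11036 to 11927 CPM in the former and 8279 to 8603 CPM in the latter. With cells thinned to 1000 UMIs, and those with fewer left out, 10 of 37 members passed, 6 higher and 4 lower. Of the 10726 genes tested there 15.7% passed. Of the 13 named above, 6 kept their call (Nfkb1, Nfkbid, Tnfaip3, Irak3, Tnfaip2 and Traf1), and the other 7 kept their direction without passing. The log2 differences of these 7 ran from 0.17 (Rel and Tlr4) to 0.37 (Bcl2a1d) on thinned cells. Rela (0.22) and Ikbkb (0.26) were larger than on all counts, and Rel, Tlr4, Relb (0.26), Nfkb2 (0.29) and Bcl2a1d were smaller. The 4 others that passed on thinned cells were Zc3h12a, higher (0.35 ± 0.11), and Gpr84 (-0.43 ± 0.11), Ier3 (-0.35 ± 0.12) and the kinase Map3k8 (-0.30 ± 0.09), lower. Nfkb1, Nfkbid, Tnfaip3, Irak3, Tnfaip2 and Traf1 also passed under each of the other 10 alternative settings and without any 1 hashtag.

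**Figure D3:**
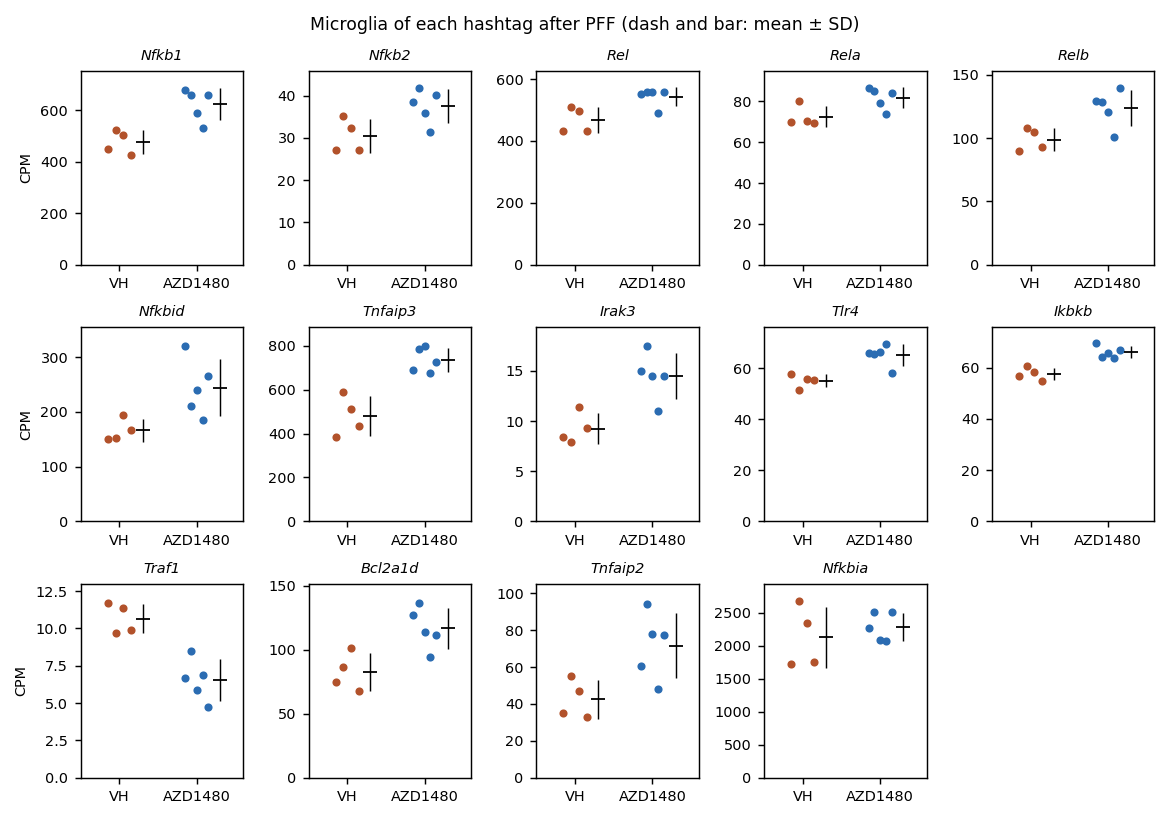
CPM of the 13 members that passed in microglia and of Nfkbia, 1 panel per gene, with 1 dot per hashtag (4 VH, 5 AZD1480) and the mean ± SD. The groups are apart in Nfkb1, Tnfaip3, Tlr4, Ikbkb and Traf1, and in Nfkbia the VH dots span the AZD1480 dots.

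Border macrophages held 25 members with enough counts to test, and 3 of them rose with AZD1480, while 1.49% of 3501 genes passed, 0.771% as higher. Nfkbiz, a nuclear IκB protein needed for a second wave of targets, was at 1393, 1596, 1712 and 1267 CPM in VH hashtags and 3062, 2847, 2848, 2036 and 1872 CPM in AZD1480 hashtags (0.76 ± 0.17; adjusted p = 0.0240 by edgeR). Zc3h12a was at 43.5, 48.4, 58.2 and 35.0 CPM against 125, 107, 73.0, 88.3 and 117.5 CPM (1.20 ± 0.28; adjusted p = 0.0323 by edgeR). Birc3, a ubiquitin ligase that protects from cell death, was at 211, 266, 316 and 181 CPM against 379, 438.0, 438.1, 419.6 and 389 CPM (0.76 ± 0.19; adjusted p = 0.0474 by edgeR). The groups did not overlap in any of these genes, while they did not overlap in 5.08% of the 3501 genes. Tlr2 did not overlap either, at 118 to 149.6 CPM against 196 to 389 CPM, but did not pass (0.75 ± 0.22; adjusted p = 0.101 by edgeR).

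These 3 calls rest on 49 to 85 cells in each VH hashtag and 14 to 64 in each AZD1480 hashtag. No member passed when VH hashtag 1 or 4, or AZD1480 hashtag 1 or 2, was left out, and 1 passed without VH hashtag 2 or AZD1480 hashtag 5. No member passed with MULTIseqDemux hashtag calls or with cells thinned to 1000 UMIs either. MULTIseqDemux gave a single hashtag to 19.8% of PFF + VH cells and 79.9% of PFF + AZD1480 cells, and thinning left 12 members to test. The call of Birc3 was lost under 6 of 11 alternative settings and when any of 8 of the 9 hashtags was left out, and its log2 difference was 0.20 on thinned cells (adjusted p = 0.900 by edgeR). The call of Zc3h12a was lost under 3 of 9 settings and that of Nfkbiz under 2 of 11. On thinned cells Nfkbiz gave 0.56 ± 0.19 (adjusted p = 0.256 by edgeR), and Zc3h12a had too few counts to be tested. Of the 25 members 21 had a log2 difference above 0, with a median of 0.43, while the median over all genes tested was close to 0. Immediate early and heat shock genes summed to 25955 to 30265 CPM in the VH hashtags of this class and to 30532 to 42700 CPM in the AZD1480 hashtags. Microglial markers stood at 1875 to 2155 CPM in border macrophages of the VH hashtags and at 914 to 1415 CPM in those of the AZD1480 hashtags, with no overlap. The part of either list in these values was not tested.

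In lymphocytes 1 of 18 members tested passed, while 1.91% of 2777 genes did, 0.72% as higher. Tnfaip3 was at 393, 236, 629 and 413 CPM in VH hashtags and 1215, 743, 866 and 942 CPM in AZD1480 hashtags 1, 2, 4 and 5 (1.16 ± 0.25; adjusted p = 0.0247 by edgeR); AZD1480 hashtag 3 held 5 lymphocytes and was not used. The groups did not overlap, as in 7.92% of the 2777 genes, and Traf1 also did not overlap (39.3 to 83.6 CPM against 101 to 164 CPM; adjusted p = 0.127 by edgeR). The call of Tnfaip3 was lost without VH hashtag 1, 2 or 4 or AZD1480 hashtag 1, and under 3 of 12 alternative settings: MULTIseqDemux calls, cells thinned to 1000 UMIs and T cells alone (adjusted p up to 0.336 by edgeR). On thinned cells its log2 difference was 1.26 ± 0.36, no smaller than on all counts, and Gadd45b was the 1 member of 6 tested that passed (1.6 ± 0.39, adjusted p = 0.0413 by edgeR). Without AZD1480 hashtag 5 the count was 3, and without VH hashtag 3 it was 2. NK cells made up 123 of 327 lymphocytes in the PFF + VH library and 20 of 164 in the PFF + AZD1480 library. With T cells alone no member passed, though Tnfaip3 was at 419 CPM in T cells of the former and 899 CPM in the latter. In the lymphocytes tested, microglial markers stood at 1136 to 1963 CPM in VH hashtags and 600 to 827 CPM in AZD1480 hashtags. Markers of T cells stood at 1622 to 3435 CPM against 3710 to 5025 CPM, and those of NK cells at 3174 to 5202 CPM against 605 to 1730 CPM. None of the 3 overlapped, and their part in these values, beyond the fit on T cells, was not tested.

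Whether the response differed between classes was tested directly. The response of border macrophages differed from that of microglia in 1 of 37 members (0.982% of 11096 genes passed, 0.568% as higher), Ier3, by 0.69 ± 0.19 on the log2 scale (adjusted p = 0.0285 by edgeR). Ier3 was at 695 to 989 CPM in VH hashtags and 636 to 1705 CPM in AZD1480 hashtags of border macrophages, and at 406 to 658 CPM and 370 to 515 CPM in microglia. Lymphocytes differed from microglia in Gadd45b alone, by 0.93 ± 0.25 (adjusted p = 0.0178 by edgeR; 1.33% of 11198 genes passed, 0.554% as higher). Gadd45b was at 213 to 512 CPM in VH hashtags of lymphocytes and at 348 to 968 CPM in AZD1480 hashtags. Each of these calls was lost without some hashtags and with cells thinned to 1000 UMIs, where the difference was 0.22 for Ier3 and 1.16 for Gadd45b. For Tnfaip3 the response of border macrophages minus that of microglia was 0.00 ± 0.19, and that of lymphocytes minus that of microglia was 0.47 ± 0.23. Traf1, which fell in microglia, gave 1.53 ± 0.47 for lymphocytes minus microglia and did not pass (adjusted p = 0.0702 by edgeR).

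**Figure D4:**
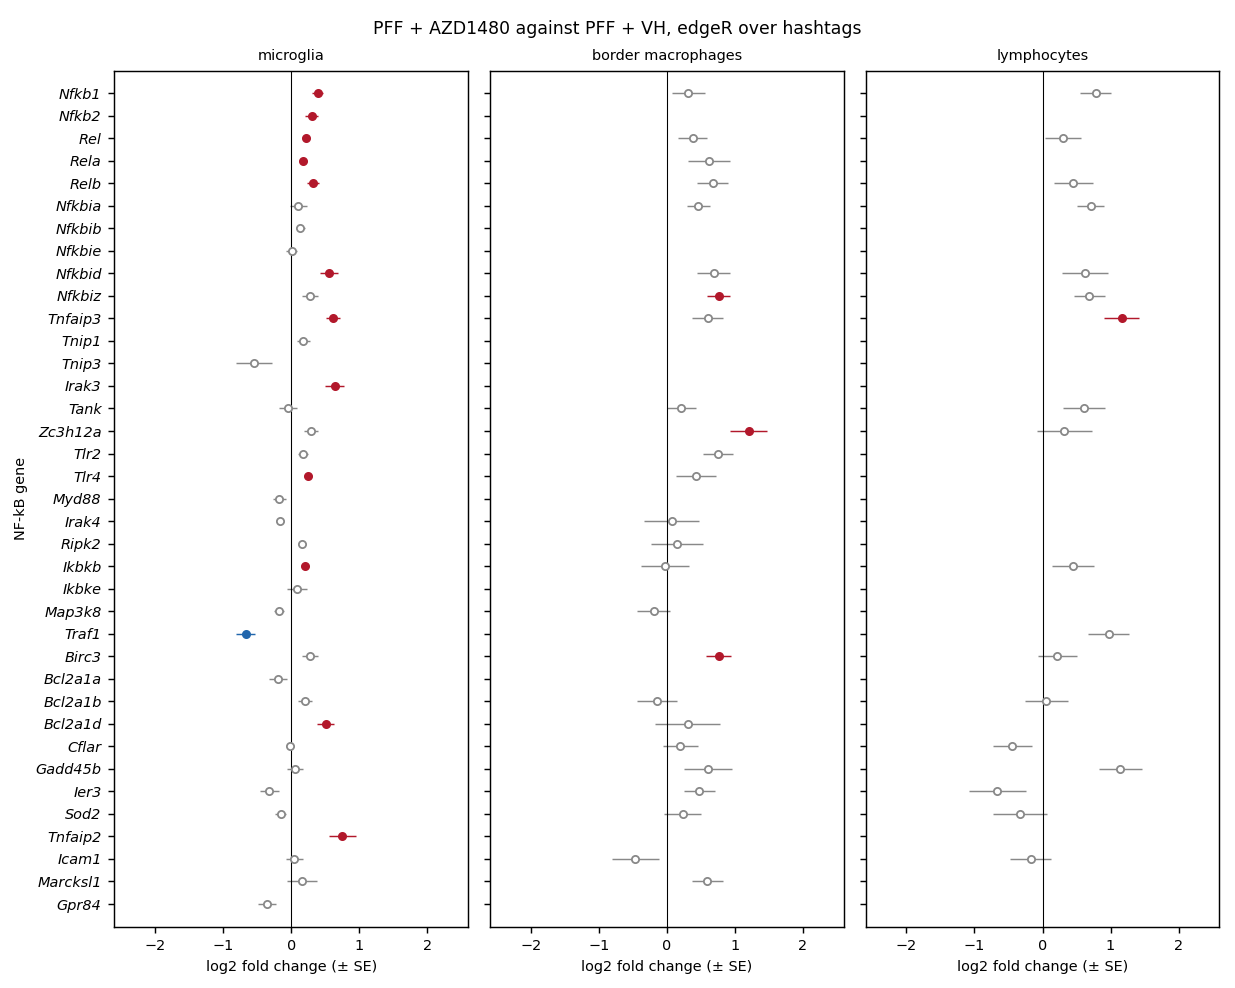
Log2 difference between AZD1480 and VH hashtags for each member in microglia, border macrophages and lymphocytes, with bars of 1 SE. Filled points passed the adjusted p of 0.05: 13 members in microglia, Nfkbiz, Zc3h12a and Birc3 in border macrophages, and Tnfaip3 in lymphocytes; members with too few counts are not drawn.

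The rest of the pathway was read from 3 further lists. Of 40 other pathway genes tested in microglia, 8 rose and 1 fell with AZD1480, 22.5% against 26.9% of all genes tested. Irak2, a kinase of the Toll-like and interleukin receptor pathway (0.43 ± 0.06), Tnfrsf1b, a receptor for tumor necrosis factor (0.34 ± 0.04), and Tlr7, a receptor for single-stranded RNA (0.32 ± 0.05), rose most, and Tlr3, a receptor for double-stranded RNA, fell (-0.42 ± 0.05). Of 19 cytokine and effector targets 7 rose and 4 fell, 57.9%. The chemokine Cxcl1 (0.89 ± 0.25), the prostaglandin synthase Ptgs2 (0.75 ± 0.17) and the inflammasome sensor Nlrp3 (0.68 ± 0.11) rose most. Those that fell were Ccl5 (-1.48 ± 0.25), Il6 (-0.61 ± 0.11), Cxcl10 (-0.45 ± 0.16) and Vcam1 (-0.43 ± 0.14). Ccl5 was higher in lymphocytes than in microglia, and markers of T and NK cells were lower in microglia of the AZD1480 hashtags, as given above. Their part in the Ccl5 difference was not tested. None of 15 immediate early and heat shock genes passed edgeR's test, and 5 had an unadjusted p under 0.05.

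In border macrophages 1 of 17 other pathway genes rose with AZD1480 (Cd14, the co-receptor for endotoxin, 1.10 ± 0.19), as did 4 of 16 cytokine and effector targets (Il1b 1.73 ± 0.24, Cxcl2 1.41 ± 0.31, Ccl2 1.32 ± 0.22 and Cd86 1.01 ± 0.15) and 4 of 15 immediate early and heat shock genes (Fosb, Atf3, Btg2 and Zfp36, 0.58 to 1.09), while 1.49% of all genes tested passed. In lymphocytes none of the 12, 8 and 13 tested genes of these lists passed edgeR's test, with 0, 2 and 1 at an unadjusted p under 0.05.

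Within microglia the members were also compared from cell to cell, along 2 lists. Cells with at least 2000 UMIs were ranked by the share of their UMIs in a list, and the top 10% of each library were compared with the rest, as a description of cells that share a library. These are ranges of a score, not types: 915 to 1624 cells per library lay within 10% of the limit for the immediate early list, and 579 to 1133 for the cytokine list. For the cytokine and effector list, 32 of the 36 members with at least 200 counts in each library were higher in the top cells of all 4 libraries, against 18.1% of 10909 genes, and their median ratio was 1.71 against 0.907. Bcl2a1d (median ratio 3.74), Bcl2a1a (3.05) and Gadd45b (2.90) had the highest ratios, and Tlr4 (0.822) and Irak4 (0.785) were below 1 in all 4 libraries. For the immediate early and heat shock list, 24 of 36 members were higher in all 4 libraries against 23.9% of 10911 genes, with a median ratio of 1.49 against 0.957. Marcksl1 (2.78), Nfkbia (2.20), Nfkbiz (2.11) and Icam1 (2.02) had the highest ratios there, while Ripk2 (0.818) and Cflar (0.928) were below 1 in all 4 libraries. Tnip3, which had fewer counts, had a median ratio of 2.90 for the cytokine list (41 to 148 counts in the top cells of a library) and 0.382 for the immediate early list (3 to 22 counts), on the same side of 1 in all 4 libraries for each list. Both rankings read UMIs of the same cells, and their values carry no test.

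**Figure D5:**
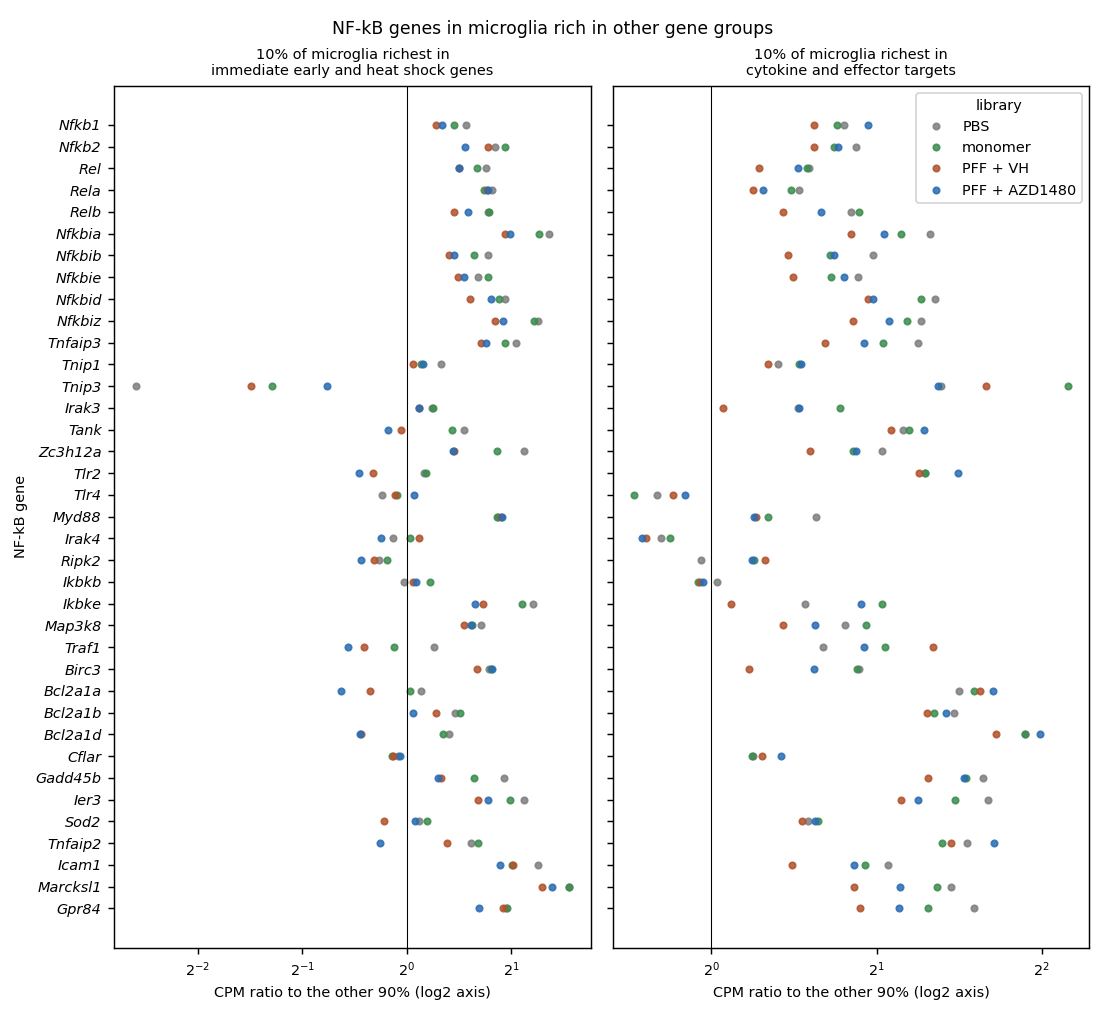
Ratio of each member's CPM in the top 10% of microglia to that in the rest, for cells ranked by the immediate early and heat shock list and by the cytokine and effector list, with 1 dot per library on a log2 axis. Most members lie above 1 in both, Bcl2a1d, Bcl2a1a and Gadd45b have medians of 3.74, 3.05 and 2.90 for the cytokine list, and Tnip3 lies below 1 in the left panel and above 1 in the right.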

How the data were processed

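The 4 libraries (PBS, Monomer, PFF + VH and PFF + AZD1480) were deposited by the authors as filtered matrices of UMI counts per gene and cell, made with Cell Ranger 7.0.1 per the file headers on mouse mm10; the tables of the 2 PFF libraries also hold hashtag counts as rows. Total UMI counts were 99658216 to 116440449 per library. Kept cells had 500 to 15000 counts, 250 to 5000 genes and a mitochondrial share of up to 10%. A class needed at least 3 UMIs from at least 2 of its markers and more than any other class. Doublets were not removed by expression, since Scrublet's automatic threshold marked 0, 0, 1 and 0 cells. Hashtag calls marked 10.71% of PFF + VH cells and 12.55% of PFF + AZD1480 cells as doublets with several hashtags. These made up 16.0% and 30.5% of border macrophages and 22.0% and 39.6% of lymphocytes. They were left out of the hashtag tests and kept in the library CPM.

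Hashtags were called with HTODemux (Seurat 5.3.0; positive quantile 0.99), counts were summed per hashtag and class (at least 10 cells), and groups were compared with edgeR 4.0.16's quasi-likelihood test in R 4.3.3 (TMM scaling, filterByExpr, Benjamini-Hochberg over all genes, threshold 0.05). Hashtag CPM use TMM library sizes. Classes were compared with hashtag or library as a block. Between single libraries, CPM with exact Poisson intervals are given with no test. Where 0 UMIs were found, the level allowed is 3 UMIs over the class total, which is below the upper end of the exact interval. Errors of log2 differences are SE. The study's own test, which takes cells as replicates, was not used. Alternatives changed scaling, filters, hashtag calls (MULTIseqDemux, centring within cells), gates, depth (thinning to 1000 UMIs), doublets, the test (DESeq2 1.42.0) and the samples left out. Named genes are members that passed for AZD1480 in any class, the 4 members with the largest called difference from microglia in each direction per class, members past 1.5-fold between libraries in microglia, and all Rel and IκB genes; of other lists, called genes where 5 or fewer, otherwise up to the 3 largest each way, less 1 gene that is not reported here. Genes named for groups that do not overlap, for the dendritic cell kinds, for cell rankings or among the remaining calls were chosen after their values were seen. On simulated counts with 2-fold changes, 83.5%, 63.0% and 34.5% of changed genes were recovered for AZD1480 in microglia, border macrophages and lymphocytes, and 8.74%, 5.26% and 9.21% of the calls were of unchanged genes. P-values measure the spread between hashtags, each taken as 1 pool of midbrains. For dendritic cells against microglia, calls and SE rest on the spread between the 4 libraries, which differ in treatment. Members and gene lists were chosen with earlier results of these data known.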

Additional observations from a re-analysis of the deposited data

Results flagged for a closer look

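In 2 genes the response to AZD1480 differed between classes by a test of the difference itself (edgeR). Ier3 differed between border macrophages and microglia by 0.69 on the log2 scale, with AZD1480 hashtags of border macrophages at 1039, 1705, 1460, 636 and 1040 CPM against 989, 899, 740 and 695 CPM in VH hashtags. The groups overlapped, since AZD1480 hashtag 4 was below every VH hashtag. The difference did not pass when any of 6 hashtags (VH 2, 3 or 4, AZD1480 2, 3 or 5) was left out. Gadd45b differed between lymphocytes and microglia by 0.93 on the log2 scale, with AZD1480 hashtags 1, 2, 4 and 5 of lymphocytes at 968, 822, 578 and 348 CPM against 295, 213, 219 and 512 CPM. It did not pass when any of 5 hashtags (VH 2 or 3, AZD1480 1, 2 or 4) was left out.

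A single hashtag lay far from the rest of its group in 2 genes. In microglia Rel was at 490.0 CPM in AZD1480 hashtag 4 and at 552 to 559 CPM in the other AZD1480 hashtags. In microglia Rela was at 80.1 CPM in VH hashtag 2 and at 69.2 to 70.5 CPM in the other VH hashtags. Of 34 groups examined 2 were flagged in this way, and chance alone flags about 1 in 20.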

How the results depend on the processing

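Some counts of members that passed depended on the setting. For AZD1480 in border macrophages the count of 3 became 1 with at least 5 marker UMIs per class, 0 with MULTIseqDemux calls and 0 with cells thinned to 1000 UMIs. In lymphocytes the count of 1 became 2 with no filter on low counts and 0 with T cells only. Thinning also gave 13 in place of 22 for border macrophages against microglia, 0 in place of 1 for both differences in response between classes, and, between PFF + VH and Monomer, 0 in place of 1 in dendritic cells and 3 in place of 10 in lymphocytes. With the highest Scrublet scores left out, a setting chosen after seeing the data like T cells only, 2 members in place of 1 passed for the difference in response between lymphocytes and microglia. In dendritic cells 2 members passed between PFF + VH and Monomer with at least 5 marker UMIs and 2 with at least 1000 counts per cell. The cause of these shifts was not tested.

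Leaving out each hashtag in turn gave 10 to 18 members for AZD1480 in microglia, 0 to 3 in border macrophages, 0 to 3 in lymphocytes, 20 to 23 for border macrophages against microglia, 26 to 28 for lymphocytes against microglia and 0 to 2 for each difference in response. Leaving out a library gave 13 to 16 for dendritic cells against microglia. For 105 results on single members (36 genes, most in several comparisons) no alternative reversed a direction. Of 663 recomputed values 587 kept their side of the threshold and 66 no longer passed. The other 10, all ratios of PFF + VH to Monomer, no longer met the 1.5-fold rule with intervals apart.

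Over all genes, thinning, which left fewer genes to test, gave 1683 calls in place of 3672 for AZD1480 in microglia, 6 in place of 52 in border macrophages, 14 in place of 53 in lymphocytes, 1459 in place of 3240 and 2482 in place of 5218 for border macrophages and lymphocytes against microglia, and 9 in place of 109 and 13 in place of 149 for the differences in response. With no filter on low counts 148 genes passed in border macrophages and 182 in lymphocytes. In lymphocytes 82 passed with hashtag values centred within cells, 93 without the highest Scrublet scores (246 for the difference in response) and 1 with T cells only. Within the 4 libraries, also chosen after seeing the data, 5479 and 8070 genes differed from microglia in border macrophages and lymphocytes.

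Hashtag numbers did not pair the samples, since same-numbered hashtags had correlations of -0.080 to 0.062. With the replicate block by hashtag number the counts were 18 in microglia, 1 in border macrophages and 4 in lymphocytes, where 85 genes passed in all. No hashtag held 10 dendritic cells, so AZD1480 was not tested there and the planned hashtag alternatives for that class were not run.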

Other observations

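Against microglia within hashtags (edgeR), 5 of 40 other pathway genes were higher and 7 lower in border macrophages, with Cd40, a co-stimulatory receptor (log2 difference 1.5 ± 0.34, SE), Cd14 (1.39 ± 0.13) and Ly96, a partner of Tlr4 (0.75 ± 0.18), highest and the adaptor Traf3 lowest (-1.90 ± 0.18). These 12 genes are 30% of the list, close to the 29.2% of all genes tested. Of 19 cytokine and effector targets 6 were higher and 7 lower (68.4%). The chemokines Cxcl1 (6.43 ± 0.23), Cxcl2 (3.71 ± 0.15) and Ccl2 (3.69 ± 0.17) were higher in border macrophages, while Il12b (-3.11 ± 0.61), Il6 (-2.95 ± 0.62) and Il1a (-2.70 ± 0.15) were lower. Of 15 immediate early and heat shock genes 12 were higher and 1, Junb, was lower.

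In lymphocytes 6 of 40 other pathway genes were higher and 15 lower than in microglia, 52.5% against 46.6% of all genes tested, where 17.8% were higher and 28.8% lower. Malt1, which links antigen receptors to NF-κB (1.87 ± 0.15), and Il1r1, a receptor for interleukin-1 (2.05 ± 0.37), were among the higher ones. Of 19 cytokine and effector targets 17 were lower and Ccl5 alone was higher (5.78 ± 0.17), and all 15 immediate early and heat shock genes were lower. In dendritic cells, within the 4 libraries, Cd40 (2.60 ± 0.52) and Malt1 (2.07 ± 0.23) were higher, among 4 higher and 6 lower of 40 other pathway genes (25% against 22.3% of all genes tested), and Tlr7 was lower (-5.0 ± 0.48). Among cytokine and effector targets Il1b (2.80 ± 0.16), Ccl5 (2.70 ± 0.39) and Ptgs2 (2.40 ± 0.26) were higher and Il1a was lower (-4.19 ± 0.27), with 4 higher and 8 lower of 19.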
